A study of Mus musculus with 9 samples.

Results

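The genes described here encode the Wnt signaling pathway, and their RNA was measured in mouse hearts at embryonic day 10.5 (E10.5) in which *Ctcf* was deleted with *Nkx2.5-Cre*. Their symbols decided which genes were taken from the deposited table, namely every gene with the name of a Wnt ligand, a Frizzled, *Lrp5*, *Lrp6* or Ror receptor, an R-spondin, a secreted inhibitor (Sfrp, *Frzb*, Dkk or Wif1), *Porcn*, *Wls*, *Znrf3*, *Rnf43*, Dvl, Axin, *Apc*, *Ctnnb1*, a *Tcf7* factor, *Lef1* or a Wisp protein. The table held 49 of them among its 14011 genes. CTCF is a zinc finger protein that binds DNA and helps to fold chromosomes into loops and domains.

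There were 9 libraries, 3 of each genotype, and each came from a pool of 6 hearts of mixed strain. The homozygotes carried *Ctcf* fl/fl with the driver *Nkx2.5-Cre*/+, and the heterozygotes carried *Ctcf* fl/+ with the same driver. Control hearts had no Cre, and the labels give them as *Ctcf* fl/fl where the study's text gives *Ctcf* fl/+. Both Cre groups therefore differ from the controls in the driver as well as in *Ctcf*, while homozygotes and heterozygotes share the driver and differ in *Ctcf*. *Nkx2.5-Cre* acts in cardiac progenitors and their descendants, and endocardium of the homozygotes still held CTCF protein according to the study's text, so the hearts were mixtures of deleted and undeleted cells. Libraries are numbered as in the column names of the table, which tie a number to a deposited sample only for the homozygotes.

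In Wnt signaling, a secreted and lipid-modified ligand binds a Frizzled receptor together with a coreceptor on the receiving cell. In the canonical branch, *Lrp5* or *Lrp6* is the coreceptor, the complex of Axin, *Apc* and kinases that destroys beta-catenin is held in check, and beta-catenin enters the nucleus to act with *Tcf7* and *Lef1* factors. In the planar polarity branch, Ror receptors and Dishevelled proteins direct cell shape and movement. During heart development the pathway is known for acting at successive steps in opposite directions on cardiac progenitors, and for roles in the outflow tract, the valves, the epicardium and the growth of the myocardium.

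Of the 49 genes, RefSeq promoter windows were at hand for 32, and 5 of those were called differentially expressed in the comparisons given here. These 5 windows of 250 bases, which end just before the first annotated start (GRCm38.p6, 5′ to 3′ on the strand of the gene), are shown because they precede the called Wnt genes. Capitals mark the TCF/LEF letters CTTTGAT or a CTCF core string (AGGGGGC, or else AGATGGC, or else AGGTGGC), searched on both strands.
Wnt2b chr3:104961710-104961959, minus strand: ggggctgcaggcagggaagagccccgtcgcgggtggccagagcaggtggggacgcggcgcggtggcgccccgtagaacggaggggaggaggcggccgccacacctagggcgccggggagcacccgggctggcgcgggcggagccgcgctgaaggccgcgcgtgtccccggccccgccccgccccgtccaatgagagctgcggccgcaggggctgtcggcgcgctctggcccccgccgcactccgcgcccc
Wnt9a chr11:59306680-59306929, plus strand: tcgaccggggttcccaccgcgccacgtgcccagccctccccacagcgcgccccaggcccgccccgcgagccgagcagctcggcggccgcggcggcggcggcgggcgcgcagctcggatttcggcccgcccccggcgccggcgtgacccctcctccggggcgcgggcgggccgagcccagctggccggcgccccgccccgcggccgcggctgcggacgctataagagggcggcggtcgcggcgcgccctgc
Ror1 chr4:100095541-100095790, plus strand: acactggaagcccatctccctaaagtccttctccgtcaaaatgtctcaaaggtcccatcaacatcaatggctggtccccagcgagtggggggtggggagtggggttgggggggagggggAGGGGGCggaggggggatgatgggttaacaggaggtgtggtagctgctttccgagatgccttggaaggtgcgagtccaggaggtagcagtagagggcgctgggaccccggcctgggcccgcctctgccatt
Lef1 chr3:131110047-131110296, plus strand: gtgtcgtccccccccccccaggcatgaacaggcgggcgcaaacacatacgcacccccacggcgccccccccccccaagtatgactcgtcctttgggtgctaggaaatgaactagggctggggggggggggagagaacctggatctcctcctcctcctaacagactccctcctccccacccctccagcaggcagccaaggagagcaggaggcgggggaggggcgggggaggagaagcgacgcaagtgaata
Frzb chr2:80447397-80447646, minus strand: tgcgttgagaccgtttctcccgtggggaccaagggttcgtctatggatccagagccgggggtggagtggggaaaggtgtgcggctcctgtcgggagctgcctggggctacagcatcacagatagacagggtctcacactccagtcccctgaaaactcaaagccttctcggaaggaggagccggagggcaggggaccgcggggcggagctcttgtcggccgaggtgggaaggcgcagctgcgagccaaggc
The *Ror1* window held 1 CTCF core string, 131 bases before the start, and the other 4 windows held neither motif. Over the 42 windows of the 32 Wnt genes, 26.2% held a CTCF core string and 4.76% the TCF/LEF letters, against 17.99% and 3.21% of all 32851 RefSeq windows of that length and 22.99% and 2.23% of the windows of the table's own genes. Of the 8 windows of called Wnt genes 12.5% held a CTCF core string, and of the 34 windows of Wnt genes not called 29.4%. A match is a description of letters and not of binding, which was not measured in these files.

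Expression is given as the normalized value of the table, which is reads scaled to a common library size, and changes are log2 fold changes on the scale of log2(value + 0.5), which understates the change of low genes. A gene was called when limma gave a Benjamini-Hochberg adjusted p under 0.05 over all 14011 genes. Total reads ran from 4294537 to 11629365 per library, and 1 read was worth 0.0901 to 0.231 units. The values of *Ctcf* itself were 121, 122 and 122 in the controls, 101, 94.2 and 97.00 in the heterozygotes and 79.6, 79.97 and 84.7 in the homozygotes. Homozygotes were below both other groups (67.04% of the control mean, limma adjusted p = 2.91e-05) and heterozygotes lay between (80.1%, 0.0467). Cardiomyocyte markers such as *Actc1*, *Myh7* and *Myh6* were high in all libraries, with a summed value of 10 markers from 18169 to 25773. Erythroid markers moved with genotype, since all 7 were called higher in homozygotes in both comparisons and their sum ran from 32486 to 47157 in controls, 26089 to 44207 in heterozygotes and 57769 to 76369.5 in homozygotes. Of 9 epicardial markers 5 were higher in homozygotes in both comparisons (sum 505 to 565, 541 to 557 and 682 to 747), and of 8 cushion mesenchyme markers 2 were lower in both (sum 1236 to 1413, 1143 to 1229 and 736 to 1001). Against controls, 2 of 10 cardiomyocyte markers were lower, 1 of 10 endothelial and endocardial markers was higher and 2 were lower, 1 of 3 neural crest markers was lower, and none of 5 second heart field or 6 foregut and liver markers was called. Against heterozygotes, 4 cardiomyocyte markers and 1 endothelial and endocardial marker were lower, and none of the neural crest, second heart field or foregut and liver markers was called. Heterozygotes against controls called no marker of any list. Beside these counts, 15.2% of all genes were called against controls, 13.6% against heterozygotes and 9.43% in both. Control 1 stood apart in the foregut and liver markers, with a sum of 792 against 57.4 and 65.5 in the other control libraries and at most 74.1 elsewhere. The part of these cells in the results below was not tested, and in bulk RNA fewer cells of a type and less RNA per cell cannot be told apart.

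The Wnt genes covered a wide range of levels. Over the 9 libraries, 5 had a mean value of at least 100, 28 lay from 10 to 100 and 16 were under 10. Per exonic kilobase, which allows levels of different genes to be set side by side, *Ctnnb1* (beta-catenin) led by far with 177 ± 3.32 (SD, n = 3) in controls. It was followed by *Wls*, the carrier of Wnt ligands to the cell surface, with 47.4 ± 0.929, and by the inhibitors *Dkk3* with 27.1 ± 1.94 and *Sfrp1* with 24.9 ± 1.34. The control libraries of *Dkk3* and *Sfrp1* overlapped, so their order is not resolved. Among the ligands *Wnt5a* ranked highest (11.4 ± 0.4798), *Wnt2* and *Wnt11* came next with overlapping libraries (7.18 ± 0.411 and 6.75 ± 0.261), and *Wnt7b* was lowest (0.135 ± 0.104). The receptors were led by *Fzd2* (16.2 ± 0.628) and *Lrp5* (12.2 ± 0.6096), whose control libraries did not overlap. A further 16 coding genes that match by name, Wnt1, Wnt3, Wnt3a, Wnt6, Wnt7a, Wnt8a, Wnt8b, Wnt10a, Wnt10b, Wnt16, Wisp2, Wisp3, Rspo4, Dkk4, Sfrp4 and Wif1, were not analysed here.

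**Figure D1:**
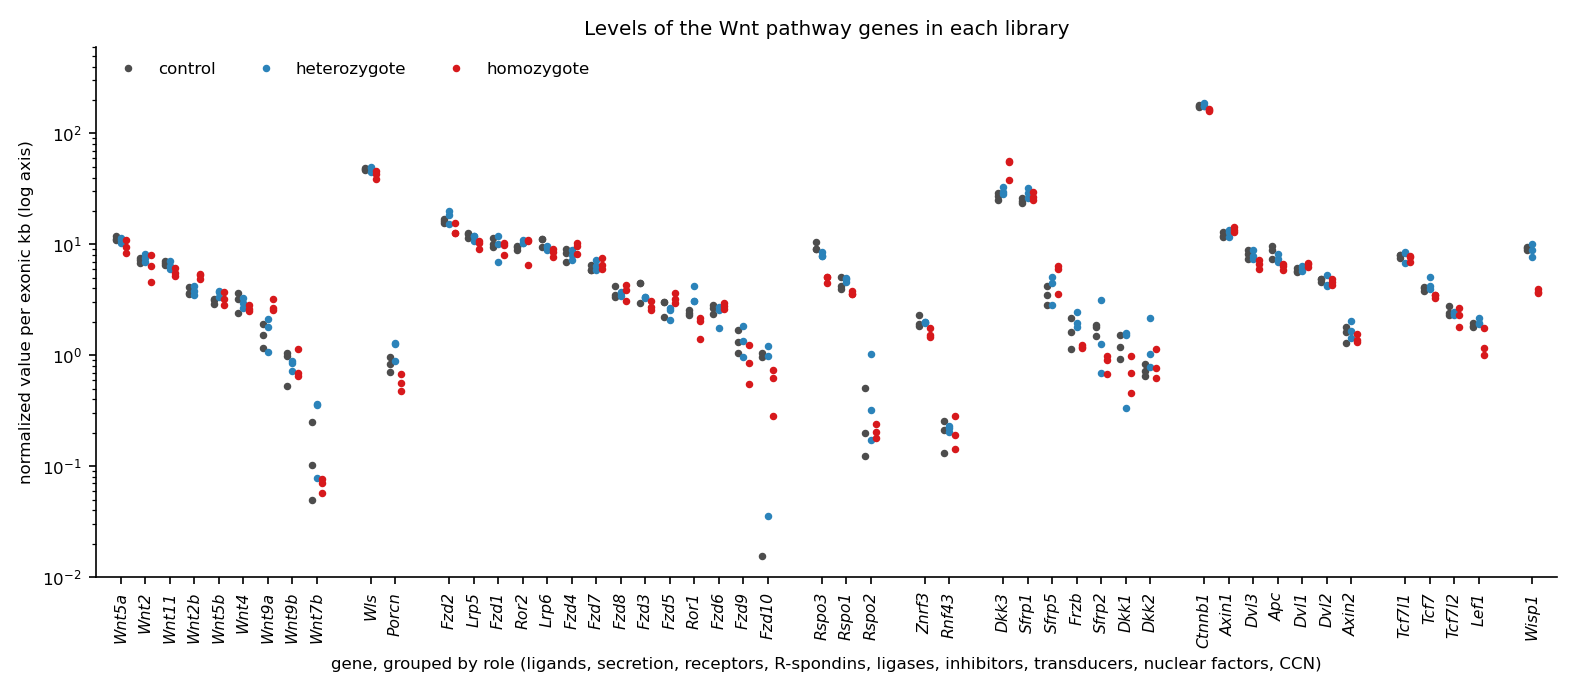
Normalized value per exonic kilobase (log axis) of the 49 Wnt pathway genes, grouped by role, with 1 point per library colored by genotype. *Ctnnb1* stands highest, *Wls*, *Dkk3* and *Sfrp1* follow, and *Wnt7b*, *Rspo2*, *Rnf43* and *Fzd10* are lowest, the 2 lowest *Fzd10* points being libraries with 0 reads.

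Homozygotes against controls asks what the loss of both *Ctcf* copies, together with the driver, did to these genes. Of the 49 genes, 10 were called (20.4%), 7 lower and 3 higher in homozygotes. Of all genes 15.2% were called, 8.03% lower and 7.19% higher. At an unadjusted p under 0.05 limma found 20 of the 49, where 29.6% of all genes reached that level. The lower genes were *Wisp1*, *Rspo3*, *Apc*, *Lrp6*, *Lrp5*, *Fzd3* and *Lef1*, and the higher ones *Dkk3*, *Wnt2b* and *Wnt9a*. The log2 fold changes had a median of -0.16 over the 49 genes and -0.0011 over the whole table. All 3 homozygote libraries lay below all 3 control libraries for 18 of the 49 genes and above them for 5, where 16.5% and 16.6% of all genes did so. No test of the family as a whole was made. The count was 5 without control 1, the library that stood apart in foregut and liver markers, and also 5 without control 3 or without homozygote 3. Calls over all genes fell too without control 3 and without homozygote 3, by the counts given at the end.

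Homozygotes against heterozygotes sets 2 groups with the driver side by side. Of the 49 genes 10 were called, 7 lower and 3 higher, where 13.6% of all genes were called, 6.7% lower and 6.87% higher. At an unadjusted p under 0.05 limma found 21, where 27.6% of all genes did so. *Wisp1*, *Rspo3*, *Lef1*, *Fzd2*, *Ror1*, *Frzb* and *Porcn* were lower, and the higher genes were again *Dkk3*, *Wnt2b* and *Wnt9a*. *Dkk3*, *Lef1*, *Rspo3*, *Wisp1*, *Wnt2b* and *Wnt9a* were the 6 genes called in both comparisons, which share the homozygote libraries and so are not independent. Of all genes 9.43% were called in both. The log2 fold changes had a median of -0.19 over the Wnt genes and -0.0045 over the table. The homozygote libraries lay entirely below the heterozygote ones for 15 genes and above them for 4, where 15.5% and 15.3% of all genes did. The count was 4 without heterozygote 1 or without homozygote 3, 5 without heterozygote 2 or homozygote 2, and 6 without homozygote 1. Calls over all genes fell too without heterozygote 2 and without homozygote 3, by the counts given at the end.

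Heterozygotes against controls gave no called Wnt gene, where 0.143% of all genes were called, 0.0928% higher and 0.05% lower. Groups without overlap were seen for *Rspo3* (lower in heterozygotes) and for *Wnt5b*, *Ror1* and *Ror2* (higher), 1 and 3 genes, where 6.93% and 7.41% of all genes did so. The lowest adjusted p was 0.489, for *Ror1*. At an unadjusted p under 0.05 limma found 5 genes, *Rspo3*, *Apc*, *Lrp6*, *Ror1* and *Sfrp1*, and 7.37% of all genes reached that level. No Wnt gene was called by edgeR or DESeq2 on the recovered reads, with 6 and 5 genes at an unadjusted p under 0.05. An exact permutation test of 3 libraries against 3 (two-sided) cannot give a p below 0.1 for a single gene, and limma p-values here measure the spread between pools of hearts.

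**Figure D2:**
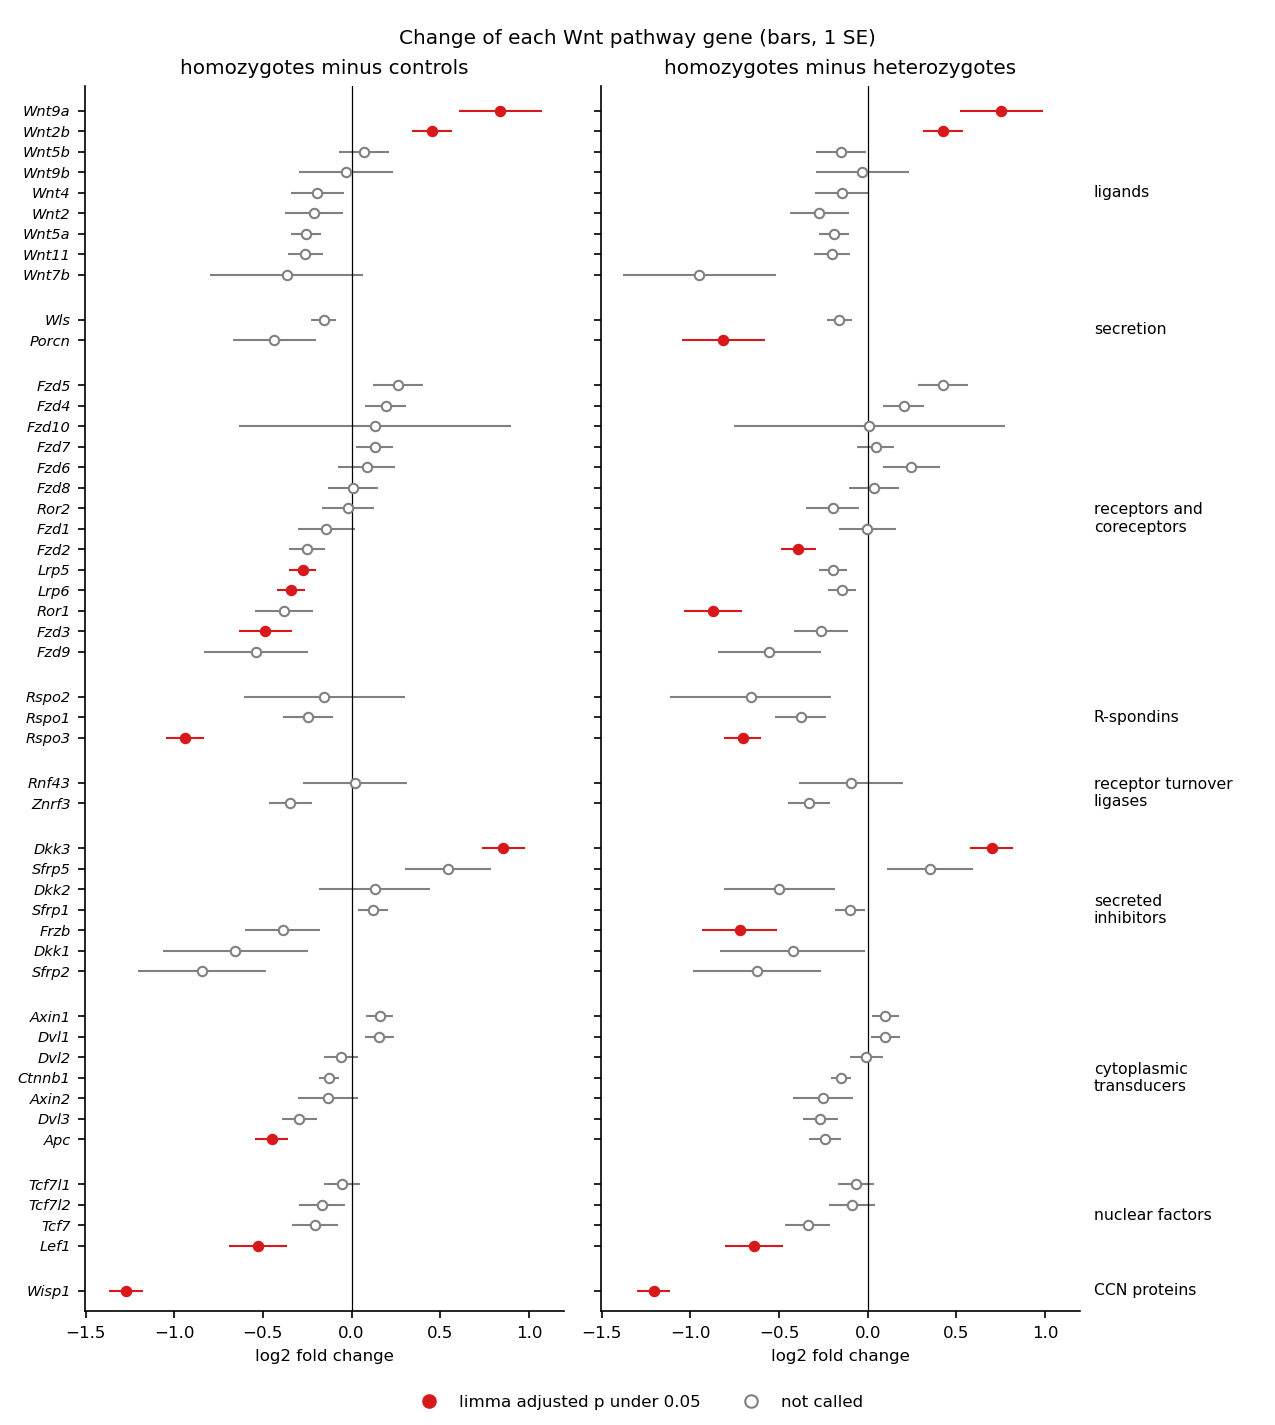
Log2 fold change of each of the 49 Wnt pathway genes, grouped by role, in homozygotes minus controls (left) and homozygotes minus heterozygotes (right), with bars of 1 standard error. Red points are the 10 genes called in each comparison, among them *Wisp1* and *Rspo3* far to the left and *Dkk3*, *Wnt9a* and *Wnt2b* to the right on both sides.

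**Figure D3:**
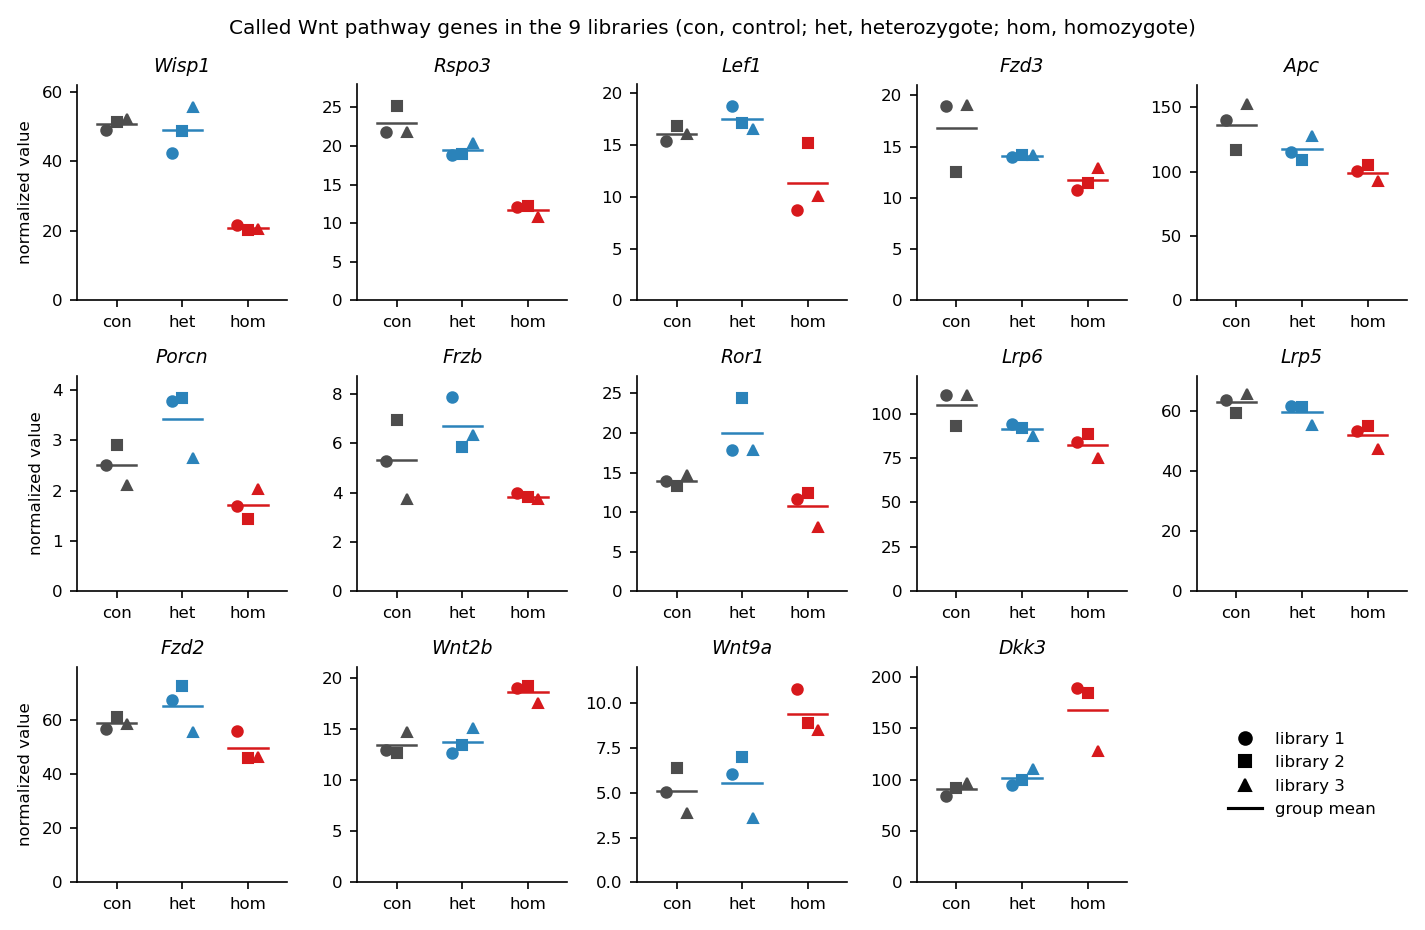
Normalized value of the 14 Wnt pathway genes called in either comparison, with 1 point per library (shape) and a line at the mean of each genotype. The homozygote points of *Wisp1* and *Rspo3* lie well under those of both other groups, and those of *Dkk3*, *Wnt2b* and *Wnt9a* lie above them.

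Wnt ligands bind Frizzled and start the signal. Of the 9 measured, 2 were higher in homozygotes in both comparisons and none was lower. *Wnt2b* (ENSMUSG00000027840, chromosome 3 from 104747723 to 104764627, minus strand, NCBIM37), a canonical ligand, had values of 12.98, 12.7 and 14.7 in the controls, 12.6, 13.4 and 15.1 in the heterozygotes and 18.96, 19.2 and 17.5 in the homozygotes. The homozygote libraries all lay above the other 6, which were mixed among themselves. Homozygotes averaged 138% of the control mean, a log2 fold change of 0.45 (SE 0.11, limma adjusted p = 0.0172), and against heterozygotes the change was 0.43 (SE 0.11, limma adjusted p = 0.0251). *Wnt9a* (ENSMUSG00000000126, chromosome 11 from 59120430 to 59147054, plus strand) was a low gene, with 5.06, 6.35 and 3.87 in the controls, 6.03, 7.001 and 3.58 in the heterozygotes and 10.8, 8.89 and 8.51 in the homozygotes. Again the homozygote libraries were the 3 highest, with heterozygote 2 and control 2 next below them. Its log2 fold change was 0.84 (SE 0.23, limma adjusted p = 0.0281) against controls and 0.75 (SE 0.23, limma adjusted p = 0.0485) against heterozygotes. These calls did not hold under every alternative. Against controls, the *Wnt2b* call was lost without controls 1 or 2 or homozygote 2 (adjusted p 0.0502 to 0.0605) and the *Wnt9a* call without controls 1 or 3 or homozygotes 1, 2 or 3 (adjusted p 0.0547 to 0.123). Against heterozygotes, the *Wnt2b* call was lost without heterozygotes 1 or 2 or homozygotes 1, 2 or 3 (adjusted p 0.0502 to 0.0922) and the *Wnt9a* call without controls 1 or 2, heterozygotes 1 or 3, or homozygotes 1, 2 or 3 (adjusted p 0.0503 to 0.168). The *Wnt2b* call was also lost by DESeq2 (adjusted p = 0.0648) against controls and by DESeq2 (adjusted p = 0.0935) against heterozygotes. The *Wnt9a* call was lost by limma without trend (adjusted p = 0.0688) against controls, and against heterozygotes it was lost with a pseudocount of 0.1, by edgeR, by DESeq2, by limma without trend, with only the groups compared in the fit and with the length trend removed (adjusted p 0.0506 to 0.1003), so that 13 of 20 alternatives ended it. Without heterozygote 3 the *Wnt9a* change against heterozygotes was 0.49.

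*Wnt5a* (ENSMUSG00000021994, chromosome 14 from 29317936 to 29340633, plus strand), the most abundant ligand and one best known for planar polarity signaling, had values of 93.4, 86.4 and 87.6 in the controls, 86.1, 88.9 and 80.9 in the heterozygotes and 85.3, 74.2 and 65.4 in the homozygotes. The homozygote libraries were all below the controls but overlapped the heterozygotes, and neither change was called (log2 fold change -0.26, SE 0.09, limma adjusted p = 0.0585 against controls, and -0.19, SE 0.09, limma adjusted p = 0.1599 against heterozygotes). Without homozygote 1 it was called in both comparisons. The other ligands, *Wnt2*, *Wnt4*, *Wnt5b*, *Wnt7b*, *Wnt9b* and *Wnt11*, were not called in any comparison. With *Wnt5a*, these 7 had group means from 0.303 to 89.1 and changes from -0.37 to 0.07 against controls and -0.95 to -0.03 against heterozygotes. The lowest, *Wnt7b*, had 1 to 16 reads per library, and its interval of -1.29 to 0.56 against controls allows a wide range of changes. Part of the *Wnt4* transcript, 334 bases or 7.96% of it, has near-identical copies elsewhere in the genome, and none of the other Wnt pathway transcripts has.

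*Porcn* and *Wls* make ligands ready for export, *Porcn* by adding the lipid and *Wls* by carrying the product to the membrane. *Porcn* (ENSMUSG00000031169, chromosome X from 7770974 to 7783651, minus strand) was near the lower end, with 2.502, 2.897 and 2.12 in the controls, 3.78, 3.85 and 2.65 in the heterozygotes and 1.703, 1.44 and 2.03 in the homozygotes. The homozygote libraries lay below all others, and the heterozygotes were the highest group. The gene was called lower against heterozygotes, with a log2 fold change of -0.81 (SE 0.23, limma adjusted p = 0.0353), and not against controls (-0.44, SE 0.23, limma adjusted p = 0.237). It had only 7 to 38 reads per library, and its call was lost without heterozygotes 1 or 2 or homozygotes 1, 2 or 3 (adjusted p 0.0561 to 0.1197), and also by DESeq2 and with only the groups compared in the fit (adjusted p 0.0588 to 0.138). With a pseudocount of 2 the change was -0.54. It did not pass the filter that asks 3 libraries to reach a value of 5. *Wls* (ENSMUSG00000028173, chromosome 3 from 159502701 to 159598797, plus strand), one of the most abundant genes of the pathway, had 154, 156 and 159.7 in the controls, 164, 160.4 and 147 in the heterozygotes and 142, 152 and 127 in the homozygotes. Its homozygote libraries were below the controls and overlapped the heterozygotes, and it was not called, with changes of -0.16 (SE 0.07, limma adjusted p = 0.144) and -0.16 (SE 0.07, limma adjusted p = 0.147).

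Of the 14 receptors and coreceptors, 3 were called lower against controls, 2 others were called lower against heterozygotes, and none was called higher. These are 21.4% and 14.3% of the 14, where 15.2% and 13.6% of all genes were called in either direction. *Lrp6* (ENSMUSG00000030201, chromosome 6 from 134396494 to 134516983, minus strand), a coreceptor of the canonical branch, had values of 110.4, 93.2 and 111 in the controls, 94.01, 92.03 and 87.1 in the heterozygotes and 84.1, 88.3 and 74.97 in the homozygotes. All homozygote libraries lay below the controls, the closest being control 2 and homozygote 2, and they overlapped the heterozygotes. Homozygotes averaged 78.7% of the control mean, a log2 fold change of -0.34 (SE 0.08, limma adjusted p = 0.0123). *Lrp5* (ENSMUSG00000024913, chromosome 19 from 3584825 to 3686564, minus strand), its close relative, had 63.7, 59.4 and 65.6 in the controls, 61.7, 61.4 and 55.5 in the heterozygotes and 53.5, 55.1 and 47.3 in the homozygotes. The homozygotes were the 3 lowest of all 9 libraries, and the change against controls was -0.28 (SE 0.08, limma adjusted p = 0.0289). *Fzd3* (ENSMUSG00000007989, chromosome 14 from 65819863 to 65881300, minus strand), a Frizzled with known roles in planar polarity and axon guidance, had 18.9, 12.6 and 19.1 in the controls, 13.98, 14.2 and 14.2 in the heterozygotes and 10.8, 11.4 and 12.9 in the homozygotes. Control 2 fell among the homozygote libraries, so the groups overlapped, and the call against controls stood near the threshold with -0.49 (SE 0.15, limma adjusted p = 0.0456).

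None of these 3 genes was called against heterozygotes, with log2 fold changes of -0.14 for *Lrp6*, -0.20 for *Lrp5* and -0.26 for *Fzd3* and limma adjusted p of 0.266, 0.113 and 0.284. The difference between the 2 comparisons is the change of heterozygotes against controls, which was not called either, with adjusted p from 0.617 for *Lrp6* to 0.893 for *Lrp5*. The *Lrp6* call was lost without control 3 or homozygote 3 (adjusted p 0.0554 to 0.0619), the *Lrp5* call without controls 1 or 3 or homozygote 3 (adjusted p 0.0783 to 0.118) and the *Fzd3* call without controls 1 or 3, heterozygotes 1, 2 or 3, or homozygotes 1, 2 or 3 (adjusted p 0.0565 to 0.186). With the trend of the values with exonic length removed all 3 calls were lost. The change against controls was then -0.21 for *Lrp6* (adjusted p = 0.0646), -0.23 for *Lrp5* (adjusted p = 0.0585) and -0.47 for *Fzd3* (adjusted p = 0.06301), so that it moved by over 1.5 times for *Lrp6* only. The *Lrp6* call was also lost by limma without trend (adjusted p = 0.0595) and the *Lrp5* call by DESeq2 and by limma without trend (adjusted p 0.0576 to 0.0753). The *Fzd3* call was lost in 14 of 20 alternatives, among them by edgeR, by DESeq2, by limma without trend and with only the groups compared in the fit (adjusted p 0.0511 to 0.0889).

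*Ror1* (ENSMUSG00000035305, chromosome 4 from 99768396 to 100117370, plus strand), a receptor tyrosine kinase of the planar polarity branch, was the clearest receptor against heterozygotes. Its values were 13.9, 13.3 and 14.7 in the controls, 17.8, 24.4 and 17.9 in the heterozygotes and 11.7, 12.4 and 8.15 in the homozygotes. The 3 groups did not overlap at all, with heterozygotes highest and homozygotes lowest. The homozygote mean was 53.7% of the heterozygote mean, a log2 fold change of -0.87 (SE 0.16, limma adjusted p = 0.00393), and the call held under all 20 alternatives of test, scaling, filter, pseudocount and left-out library. Against controls the change was -0.38 (SE 0.16, limma adjusted p = 0.137). In heterozygotes against controls it was 0.49 (SE 0.16, limma adjusted p = 0.489), which is the lowest adjusted p of the family there but no call. The window of *Ror1* shown above is the one that held a CTCF core string, which 22.99% of windows of the table's own genes also held. Whether it has a part in the *Ror1* values was not tested.

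*Fzd2* (ENSMUSG00000050288, chromosome 11 from 102465745 to 102469372, plus strand), the most abundant Frizzled per exonic kilobase, had 56.5, 61.05 and 58.4 in the controls, 67.2, 72.3 and 55.5 in the heterozygotes and 55.98, 45.95 and 46.2 in the homozygotes. Homozygote 1 and heterozygote 3 were nearly equal, so those groups overlapped, and all homozygotes lay below the controls. The call was against heterozygotes, with -0.39 (SE 0.10, limma adjusted p = 0.02101), and not against controls (-0.25, SE 0.10, limma adjusted p = 0.1095). It was lost without heterozygotes 1 or 2 or homozygotes 2 or 3 (adjusted p 0.0696 to 0.0874) and by limma without trend (adjusted p = 0.07996). Without homozygote 1 *Fzd2* was called against controls too. The remaining 9 receptors, *Fzd1*, *Fzd4*, *Fzd5*, *Fzd6*, *Fzd7*, *Fzd8*, *Fzd9*, *Fzd10* and *Ror2*, were called in no comparison, with group means from 1.78 to 45.3 and changes from -0.54 to 0.26 against controls and -0.56 to 0.43 against heterozygotes. *Fzd5* came closest, with 0.43 (SE 0.14, limma adjusted p = 0.0617) against heterozygotes, and all 3 homozygote libraries lay above the heterozygotes. It was called there by edgeR, with the length trend removed and without control 3. *Fzd10* had 0 reads in control 2 and heterozygote 3, which allows a value of up to 0.305 and 0.692 there for counting error, and 5 to 40 reads in the other 7 libraries, where its values ran from 0.931 to 3.97. These 2 libraries were of different genotypes. An annotated pseudogene of the same name overlaps *Fzd10* on the same strand, so its values are uncertain.

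R-spondins are secreted proteins that raise Wnt receptors at the surface by drawing off the ligases *Znrf3* and *Rnf43*. *Rspo3* (ENSMUSG00000019880, chromosome 10 from 29172915 to 29255673, minus strand), the most abundant of the 3 measured, showed one of the largest falls in the pathway. Its values were 21.8, 25.2 and 21.9 in the controls, 18.9, 18.99 and 20.4 in the heterozygotes and 12.1, 12.3 and 10.8 in the homozygotes. The groups were fully separate, with controls highest and homozygotes lowest. Homozygotes averaged 51.1% of the control mean, a log2 fold change of -0.94 (SE 0.11, limma adjusted p = 9.37e-05), and 60.4% of the heterozygote mean, a change of -0.71 (SE 0.11, limma adjusted p = 0.00106). Heterozygotes against controls gave -0.23 (SE 0.11, limma adjusted p = 0.6702), which is not a call. Both calls held under all 20 alternatives. *Rspo1* and *Rspo2* were not called, with changes from -0.25 to -0.15 against controls and -0.66 to -0.38 against heterozygotes. The *Rspo1* libraries of the homozygotes were nevertheless all below those of both other groups, at 6.89 to 7.36 against 7.62 to 9.81 in controls, and limma without trend called the gene against heterozygotes.

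The ligases that remove Frizzled from the surface were not called. *Znrf3* (ENSMUSG00000041961, chromosome 11 from 5176327 to 5344850, minus strand) had 15.1, 14.6 and 18.1 in the controls, 15.8, 15.8 and 15.3 in the heterozygotes and 11.5, 13.8 and 11.9 in the homozygotes. All homozygote libraries lay below both other groups, but the changes of -0.35 (SE 0.12, limma adjusted p = 0.0683) against controls and -0.33 (SE 0.12, limma adjusted p = 0.0866) against heterozygotes missed the threshold. Without homozygote 2 the gene was called against controls. *Rnf43* was low, with 5 to 20 reads per library, and its changes of 0.02 and -0.09 were small beside their standard error of 0.29.

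Of the 7 secreted inhibitors measured, 1 was higher in both comparisons, 1 was lower against heterozygotes only, and 5 were called in neither. *Dkk3* (ENSMUSG00000030772, chromosome 7 from 119259533 to 119302571, minus strand), a Dickkopf-related secreted glycoprotein whose effect on Wnt signaling depends on the cell, rose in homozygotes. Its values were 83.98, 92.3 and 96.8 in the controls, 95.2, 99.5 and 109.9 in the heterozygotes and 189, 184 and 128 in the homozygotes. The homozygote libraries were all above the others, with homozygote 3 the lowest of the 3. Homozygotes averaged 184% of the control mean, a log2 fold change of 0.86 (SE 0.12, limma adjusted p = 5.46e-04), and 165% of the heterozygote mean, a change of 0.70 (SE 0.12, limma adjusted p = 0.00241). Both calls held under all 20 alternatives. Of the 9 epicardial markers, 5 were higher in homozygotes too, with log2 fold changes against controls from 0.29 to 0.80 over the 5. Whether this has a part in the *Dkk3* values was not tested. Over the 9 the median change was 0.33, and their summed value in each genotype is given above.

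*Frzb* (ENSMUSG00000027004, chromosome 2 from 80252127 to 80287782, minus strand), a decoy that binds Wnt ligands outside the cell, had 5.296, 6.96 and 3.73 in the controls, 7.895, 5.87 and 6.34 in the heterozygotes and 3.97, 3.81 and 3.74 in the homozygotes. The homozygotes lay below all heterozygotes and overlapped the controls, whose own libraries spread widely. It was called against heterozygotes, with -0.72 (SE 0.21, limma adjusted p = 0.0387), and not against controls (-0.39, SE 0.21, limma adjusted p = 0.246). The call was lost without heterozygotes 1, 2 or 3 or homozygotes 1, 2 or 3 (adjusted p 0.0585 to 0.138), and also by DESeq2 and by limma without trend (adjusted p 0.0603 to 0.0813). *Dkk1*, *Dkk2*, *Sfrp1*, *Sfrp2* and *Sfrp5* were called in no comparison, with changes from -0.84 to 0.54 against controls and -0.62 to 0.35 against heterozygotes. *Sfrp2* marked the lower end of the first range, with all homozygotes at 1.48 to 2.12 and all controls at 3.201 to 4.02, but its limma adjusted p was 0.139. It was called against controls with only the groups compared in the fit and without heterozygote 2. *Sfrp5* marked the upper end, with an adjusted p of 0.154.

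In the cytoplasm, *Apc* was the one transducer of 7 that was called, where 15.2% of all genes were called against controls. *Apc* (ENSMUSG00000005871, chromosome 18 from 34380578 to 34481843, plus strand), the scaffold of the complex that destroys beta-catenin, had values of 139.8, 117 and 152 in the controls, 115, 109 and 128 in the heterozygotes and 100.03, 105 and 92.4 in the homozygotes. The homozygotes were below both other groups in every library, and the heterozygotes lay between, with library 3 above the lowest control. Homozygotes averaged 72.7% of the control mean, a log2 fold change of -0.45 (SE 0.09, limma adjusted p = 0.00568). Against heterozygotes the change was -0.24 (SE 0.09, limma adjusted p = 0.0981) and against controls that of the heterozygotes was -0.21 (SE 0.09, limma adjusted p = 0.639), neither of them a call. The *Apc* call against controls held under all 20 alternatives, most narrowly with the length trend removed, where the change was -0.23 and the adjusted p 0.0464.

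*Ctnnb1* (ENSMUSG00000006932, chromosome 9 from 120838334 to 120869625, plus strand), the most abundant gene of the pathway, had 887, 907 and 921 in the controls, 963, 895 and 901 in the heterozygotes and 848, 822 and 817 in the homozygotes. Every homozygote library was below every library of the other groups, by a small margin. Homozygotes averaged 91.6% of the control mean, and the change of -0.13 (SE 0.06, limma adjusted p = 0.148), with an interval of -0.25 to -0.01, was not called. Against heterozygotes it was -0.15 (SE 0.06, limma adjusted p = 0.0962). With quantile normalization, *Ctnnb1* was called in both comparisons. *Axin1* and the Dishevelled genes *Dvl1*, *Dvl2* and *Dvl3* were not called, nor was *Axin2*, which is widely read as a target of canonical signaling. For *Axin2* the interval of the log2 fold change was -0.50 to 0.23 against controls and -0.62 to 0.11 against heterozygotes. Over these 6 transducers the changes ran from -0.29 to 0.16 against controls and -0.27 to 0.10 against heterozygotes, and *Dvl3* came closest to a call, with -0.29 (SE 0.10, limma adjusted p = 0.0611) against controls, and was called there without homozygote 2. The gene spans of *Ctnnb1*, *Dvl2*, *Wnt5a* and *Wnt5b* overlap those of other table genes on the opposite strand (*Ulk4*, *Acadvl*, *Gm2670* and *Fbxl14*). The strand of the reads is not stated, and exons of such pairs were not compared, so whether they share reads was not tested. The same holds for *Apc* and the pseudogene Gm10548 and for *Ror1* and the pseudogene Gm12706, both on the opposite strand. *Ror1* also overlaps Gm12701 on its own strand. These 3 genes were not analysed here.

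Among the nuclear factors, *Lef1* was lower in homozygotes in both comparisons. *Lef1* (ENSMUSG00000027985, chromosome 3 from 130813389 to 130927274, plus strand), a DNA-binding partner of beta-catenin, had 15.4, 16.8 and 16.01 in the controls, 18.8, 17.1 and 16.5 in the heterozygotes and 8.74, 15.1 and 10.04 in the homozygotes. All homozygote libraries were the lowest, but homozygote 2 came close to control 1. The change was -0.53 (SE 0.16, limma adjusted p = 0.0446) against controls and -0.64 (SE 0.16, limma adjusted p = 0.0203) against heterozygotes. The first call was lost without controls 1, 2 or 3, heterozygotes 1, 2 or 3, or homozygotes 1 or 3 (adjusted p 0.0533 to 0.146) and with the length trend removed (log2 fold change -0.42, adjusted p = 0.115), and the second without heterozygotes 1 or 2 or homozygotes 1 or 3 (adjusted p 0.0512 to 0.0772). The first was also lost by DESeq2, by limma without trend and with only the groups compared in the fit (adjusted p 0.0699 to 0.0964), which makes 12 of 20 alternatives, and the second by limma without trend (adjusted p = 0.0621). *Tcf7l1* (ENSMUSG00000055799, chromosome 6 from 72576372 to 72739248, minus strand), the factor with the highest level and mostly a repressor, had 24.97, 26.4 and 26.4 in the controls, 28.4, 27.7 and 22.7 in the heterozygotes and 25.5, 23.1 and 26.3 in the homozygotes. Its groups overlapped throughout, and the interval of its change against controls was -0.27 to 0.16. *Tcf7* and *Tcf7l2* were not called either. *Tcf7* was nonetheless lower in every homozygote library (9.197 to 9.77) than in any other library, with an adjusted p of 0.312 against controls and 0.101 against heterozygotes.

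*Wisp1* (ENSMUSG00000005124, chromosome 15 from 66722882 to 66754763, plus strand), a secreted CCN protein named as a gene induced by Wnt1, had the largest fall of the 49 genes by log2 fold change in both comparisons. Its values were 48.9, 51.4 and 52.3 in the controls, 42.3, 48.6 and 55.7 in the heterozygotes and 21.7, 20.2 and 20.4 in the homozygotes. The homozygote libraries lay close together, well under every library of the other groups, while controls and heterozygotes overlapped. Homozygotes averaged 40.8% of the control mean, a log2 fold change of -1.27 (SE 0.09, limma adjusted p = 2.95e-06), and 42.5% of the heterozygote mean, a change of -1.21 (SE 0.09, limma adjusted p = 8.23e-06). Heterozygotes against controls gave -0.07 (SE 0.09, limma adjusted p = 0.941). Under the 20 alternatives the change against controls stayed between -1.30 and -1.22 and the one against heterozygotes between -1.31 and -1.11, and both calls held in each. Of the 8 cushion mesenchyme markers, *Vcan* (-0.67) and *Postn* (-0.53) were lower against controls and the other 6 were not called, with a median of -0.38 over the 8, and their part in the *Wisp1* values was not tested.

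Exonic length, which the choice of genes did not use, went with the changes over the whole table. Homozygotes against controls had a median change of 0.17 in the decile of genes with the shortest exons and of -0.16 in that with the longest. The Wnt genes called lower against controls had exonic lengths from 2394 to 15750 bases with a median of 5518, and the 3 called higher had 3329 to 3573, where the median of the 49 was 4081. With the trend removed in each library, 6 of the 10 calls against controls remained, namely *Wisp1*, *Rspo3*, *Apc*, *Dkk3*, *Wnt2b* and *Wnt9a*, and no other gene was added. Against heterozygotes 9 of the 10 calls remained, *Wnt9a* was lost and *Fzd5* was added. *Rspo3*, the shortest of the 10 genes called against controls, changed by -0.98 after removal, and *Wisp1* by -1.22.

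**Figure D4:**
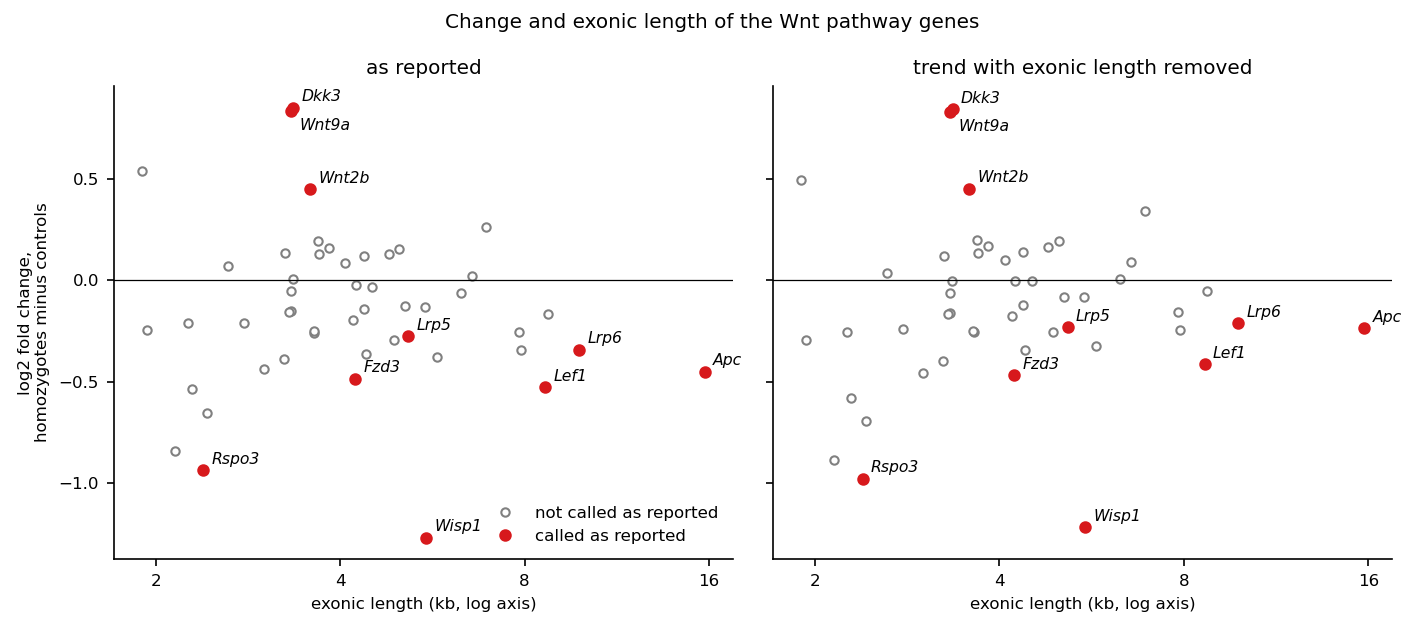
Log2 fold change of homozygotes minus controls against exonic length (log axis) for the 49 Wnt pathway genes, as reported (left) and with the trend of the values with length removed (right), with genes called as reported in red. *Lrp6*, *Apc* and *Lef1* at the long end move toward 0 on the right, while *Wisp1*, *Rspo3*, *Dkk3*, *Wnt2b* and *Wnt9a* stay nearly in place.

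The rest of the pathway was taken from lists of 80 further genes, of which 69 were analysed (1 of them stands in 2 lists). Of these, 15 (21.7%) were called against controls, 12 lower and 3 higher, and 15 against heterozygotes, again 12 lower and 3 higher, where 15.2% and 13.6% of all genes were called. Against controls 8.03% of all genes were lower and 7.19% higher, and against heterozygotes 6.7% and 6.87%. The lists were chosen with earlier results of these data known, so their shares are no test against all genes. None was called in heterozygotes against controls, with 7 at an unadjusted p under 0.05. By list, the calls against controls were 3 of 20 for the destruction complex and transducers, 2 of 17 for nuclear cofactors, 2 of 9 for surface regulators, 4 of 14 for planar polarity and 4 of 10 for common targets of beta-catenin. The count against controls was 8 without control 3, where the calls over all genes fell too.

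*Nkd2*, which binds Dishevelled and restrains the signal, had the largest fall of these 69 genes in both comparisons. Its values were 2.85, 4.22 and 4.02 in the controls, 2.99, 3.47 and 3.58 in the heterozygotes and 0.568, 0.762 and 1.04 in the homozygotes. The homozygotes were far below all others but rested on 2, 4 and 11 reads, against 15 to 41 in the other libraries, and the change was -1.70 (SE 0.24, limma adjusted p = 6.07e-04) against controls and -1.59 (SE 0.24, limma adjusted p = 0.00117) against heterozygotes. *Kremen1*, a receptor for Dickkopf proteins, had 60.1, 59.9 and 66.3 in the controls, 58.3, 66.3 and 61.7 in the heterozygotes and 48.3, 42.4 and 35.5 in the homozygotes, with the homozygotes lowest and a change of -0.57 (SE 0.10, limma adjusted p = 0.00233) against controls. Among the common targets, *Cd44*, a receptor for hyaluronan, and *Ccnd2*, a cyclin of the early cell cycle, were lower in homozygotes, with changes of -0.85 (SE 0.14, limma adjusted p = 0.00194) and -0.44 (SE 0.07, limma adjusted p = 0.00117) against controls. *Myc*, a growth regulator counted among the same targets, was higher, with 0.37 (SE 0.10, limma adjusted p = 0.0221) against controls and 0.58 (SE 0.10, limma adjusted p = 0.00204) against heterozygotes. Of the 10 common targets measured, 4 were called against controls, 3 lower and 1 higher, and 6 against heterozygotes, 5 lower and 1 higher.

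Of the other pathway genes called against controls, *Tnks*, which marks Axin for degradation, changed by -0.33 (SE 0.07, limma adjusted p = 0.00931). *Daam1*, a formin downstream of Dishevelled, changed by -0.31 (SE 0.07, limma adjusted p = 0.0128) and *Ankrd6*, which binds Axin and Dishevelled, by -0.58 (SE 0.14, limma adjusted p = 0.0123). Against heterozygotes, *Dact3*, a Dishevelled antagonist, changed by -0.52 (SE 0.09, limma adjusted p = 0.00225) and *Bambi*, a decoy receptor of the TGF-beta family, by -0.37 (SE 0.07, limma adjusted p = 0.00509). In the plot of these genes by library, homozygote 2 was the mildest for *Cd44* and homozygote 3 for *Ankrd6*.

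**Figure D5:**
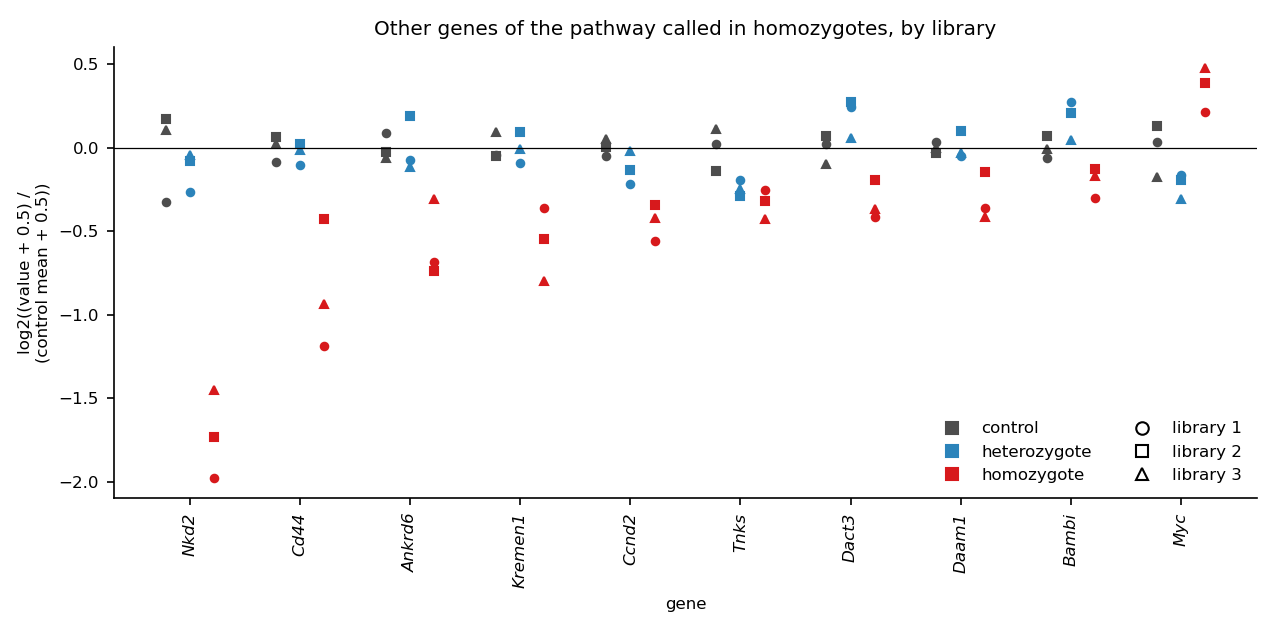
Level of 10 further pathway genes in each library, as log2 of (value + 0.5) over (control mean + 0.5), colored by genotype with a shape for each library number. *Nkd2*, *Cd44* and *Kremen1* are lowest in the homozygotes and *Myc* is above the other groups in all 3.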

How the data were processed

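RNA was sequenced from 9 pools of 6 E10.5 hearts, 3 per genotype. The processing notes of the submitters list CASAVA 1.8, cutadapt 1.6.1, RSEM 1.20, Bowtie2 0.12.7 and limma with mouse build NCBIM37, and low genes had been removed before deposit, since every gene reaches a value of 1 in 3 or more libraries. The deposited values are a normalized signal made by the authors, in which reads plus 0.5 are divided by a scaled library size. Dividing by the value of 1 read and subtracting 0.5 gave whole reads for 100% of values (tolerance 0.001). Whether reads were counted by strand is not given in the sources used here. Columns named KO were tied to homozygotes by the sample titles and those named DH to heterozygotes by the labels' growth protocol. Columns named Het were taken as controls, although the sample titles use HET for the heterozygotes with Cre, because their means equal the study's control averages for 1998 of 1998 genes compared, and those of the DH columns equal its heterozygote averages for 787 of 787 (within 0.01%). Of the 9 columns 0 were left unused.

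Values were analysed as log2(value + 0.5) in one limma 3.58.1 fit with trend (R 4.3.3) over 9 libraries and 14011 genes, with Benjamini-Hochberg adjustment and a threshold of 0.05. On the recovered reads edgeR 4.0.16 called 2212 genes in homozygotes against controls, 1903 against heterozygotes and 21 in heterozygotes against controls. Alternatives were edgeR, DESeq2 1.42.0, pseudocounts, filters on low values, no trend, only the groups compared, quantile normalization, removal of the length trend, a replicate block, a threshold of 0.01 and leaving out each library. The fits were also run on simulated counts with the same spread set for all genes and no length trend. That run does not bear on the calls reported here.

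Wnt pathway genes were taken by symbol, and values per library are printed for those called in any comparison and for the one with the highest level per exonic kilobase in each role. Of other pathway genes, up to 8 called genes per comparison are named, by adjusted p, and of each marker list up to 3, by level. The values of 1 gene that this rule names are not reported here. Members and lists were chosen with earlier results of these data known. Gene positions are from the NCBIM37 annotation and promoter windows from RefSeq on GRCm38.p6, with no conversion between builds. Near-identical copies were searched with BLAST+ 2.17.0 (at least 95% identity over 100 bases).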

Additional observations from a re-analysis of the deposited data

How the results depend on the processing

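No called Wnt gene changed direction under any alternative. The count of 10 Wnt genes called in homozygotes against controls was 6 by DESeq2, 5 by limma without trend, 6 with the length trend removed, 4 at an adjusted p under 0.01, and 5 to 9 when 1 library was left out. The count of 10 against heterozygotes was 6 by DESeq2, 4 at 0.01 and 4 to 11 when 1 library was left out. The other pathway genes called against controls numbered 15 as reported, 8 without trend, 6 at 0.01 and 8 to 15 when 1 library was left out, and against heterozygotes 15 as reported and 8 at 0.01. The cause was not tested, except that the threshold of 0.01 is stricter by construction. Over all genes, 2133 calls against controls became 1196 without trend, 858 at 0.01, 1049 without control 3 and 1267 without homozygote 3. The 1901 against heterozygotes became 1063 without trend, 722 at 0.01, 1257 without heterozygote 2, 1223 without heterozygote 3 and 1023 without homozygote 3. The 20 in heterozygotes against controls became 40 by DESeq2, 10 without trend, 13 at 0.01 and 13 without heterozygote 3. A replicate block on the number in the column name gave 10, 9 and 0 called Wnt genes and 15, 14 and 0 other pathway genes in the 3 comparisons. Under this block the *Fzd3* call against controls (adjusted p = 0.0504) and the *Porcn* call against heterozygotes (0.0565) were lost, and *Wnt5a* was called against controls. These numbers do not pair the libraries, since the 9 same-number correlations of deviations from group means lay between -0.043 and 0.085. With 4294537 reads, the shallowest library gave 1 read a value of 0.231, which limits what can be said of *Wnt7b*, *Rspo2*, *Rnf43*, *Porcn*, *Fzd10* and *Nkd2*.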
